A study of Homo sapiens with 8 samples.

Results

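The genes described here are 40 genes of the lysosome, of the proton pump that acidifies it (the V-ATPase) and of autophagy, taken by symbol from a table of 28281 genes measured by RNA sequencing. They were chosen by name and not by a cutoff on their measured values, but with earlier results of these data known. They comprised 15 hydrolases and hydrolase cofactors, 3 lysosomal membrane proteins, 2 transcription factors, 13 V-ATPase subunits and 7 autophagy genes. The cells were KYSE70, an established line of human esophageal squamous cell carcinoma, and the series title names the compounds given to them as inhibitors of NRF2, the transcription factor of the antioxidant response. Untreated cells (n = 3) were compared with cells given 10 µM pyrimethamine (n = 2), an antifolate, or 20 nM mitoxantrone (n = 3), an anthracenedione that poisons type II topoisomerases. Exposure to either compound lasted 72 h. All groups are the same cell line, and the labels describe the controls as without treatment and name no vehicle. Nor do the labels say whether replicates were separate cultures, so p-values measure the spread between these libraries, which may be technical.

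Lysosomes are the acidic compartments in which cells break down protein, glycans and lipids. Their hydrolases work at low pH, which the V-ATPase maintains by coupling ATP hydrolysis in its cytosolic V1 sector to proton transport through its membrane-embedded V0 sector. Autophagy delivers cytoplasm to the lysosome in membrane vesicles: the ULK1 kinase complex starts the process, lipid kinase complexes and WIPI proteins mark the growing membrane, and small ubiquitin-like proteins of the ATG8 family (the LC3 and GABARAP proteins) are attached to it. TFEB and TFE3 are related transcription factors that enter the nucleus when lysosomes are stressed or nutrients are scarce, and they bind a short palindromic word, CACGTG and its extension by a flanking T or A, in the promoters of many lysosomal genes.

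That word could be looked for directly in these genes. RefSeq promoter sequences (GRCh38.p14, from 250 bases before to 50 after the annotated start) were at hand for 29 of the 40 genes, and TCACGTG, read on either strand, was present in 9 of them (31.0%). The same letters stood in 5.62% of 11508 promoters of genes tested here and in 3.82% of all 27305 promoters. The full palindrome TCACGTGA, which contains TCACGTG, was in 6 of 29 (20.7%), against 1.82% and 1.04%, and the core CACGTG alone, which is part of both, was in the same 9 of 29, against 9.76% and 7.43%. The 9 genes were CTSA, CTSD, GAA, NEU1, LAMP1, MCOLN1, ATP6V0B, ATP6V0D1 and ATP6V1G1. The letters were in none of the 4 ATG8 family windows and neither of the TFEB and TFE3 windows. These are matches of letters and not binding sites, and no test was made of them.

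The windows around the word are shown for 7 genes, because they carry the same word and yet their transcripts moved in different directions with mitoxantrone, as described further on. Each is written in the direction of transcription, with the matches to TCACGTG or its reverse complement, extended to TCACGTGA where present, in capitals. Transcripts of the first 4 (NEU1, ATP6V0B, ATP6V0D1 and ATP6V1G1) were higher, those of CTSD and LAMP1 were lower, and MCOLN1 passed no threshold. The windows lie at chr6:31862926-31862963 (minus strand), chr1:43974887-43974942 (plus), chr16:67481195-67481232 (minus), chr9:114587695-114587732 (plus), chr11:1763953-1763990 (minus), chr13:113297031-113297259 (plus) and chr19:7522567-7522631 (plus).
NEU1: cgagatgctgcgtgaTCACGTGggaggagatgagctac
ATP6V0B: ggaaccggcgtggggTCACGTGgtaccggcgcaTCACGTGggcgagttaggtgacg
ATP6V0D1: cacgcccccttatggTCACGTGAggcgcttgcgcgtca
ATP6V1G1: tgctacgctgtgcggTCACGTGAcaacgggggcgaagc
CTSD: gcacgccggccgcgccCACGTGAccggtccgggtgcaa
LAMP1: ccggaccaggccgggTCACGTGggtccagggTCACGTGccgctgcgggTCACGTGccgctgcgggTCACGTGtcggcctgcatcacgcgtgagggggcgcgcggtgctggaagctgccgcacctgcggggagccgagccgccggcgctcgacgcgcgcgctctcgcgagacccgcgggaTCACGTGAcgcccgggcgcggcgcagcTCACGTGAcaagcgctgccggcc
MCOLN1: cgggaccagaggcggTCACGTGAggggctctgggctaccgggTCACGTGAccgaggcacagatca
Counting the first base of CACGTG from the annotated start, the match in NEU1 stood at -126, that in ATP6V1G1 at -58, that in ATP6V0D1 at -59 and that in CTSD at -47. ATP6V0B held 2 matches, at -57 and -39, and MCOLN1 held 2, at -41 and -14. LAMP1 held 6.

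The deposited values were gene counts divided by a size factor for each library, and they are called normalised counts below. The whole reads recovered from them came to 17555689 to 24774358 per library. A level given here is relative to the size factor of its library and is not a share of its reads. In untreated replicate 1, with 20702029 reads, 1 read counted as 0.919. It counted as 1.29 in mitoxantrone replicate 2, with 20908772 reads, and as 0.571 in pyrimethamine replicate 1, with 23350504. The sum of all levels therefore differed between libraries, and summed levels below depend on this scaling. Less RNA per cell and fewer cells cannot be told apart from a level. The 7 markers of squamous epithelium were all present, with summed levels of 112335 to 118929 in untreated cells, 84875 to 89204 with pyrimethamine and 83685 to 84330 with mitoxantrone. Most of each sum was KRT5 (78011 to 84458 in untreated cells). The markers did not move together, with mitoxantrone log2 fold changes from -2.26 for DSG3 to 1.17 for PERP. Markers of fibroblasts summed to 2264 to 2407 in untreated cells, 3399 to 4109 with pyrimethamine and 2325 to 2567 with mitoxantrone. Their sum hides opposite changes with mitoxantrone. COL1A1 and COL3A1 were called lower (log2 fold changes -1.28 and -2.03). THY1 and LUM were called higher (0.74 and 3.20), LUM from an untreated mean of 5.84. The pyrimethamine libraries stood apart from each other. Ribosomal protein genes (82 genes) took 4.17% of reads in replicate 1 and 12.9% in replicate 2, against 10.2 to 10.4% in untreated and 16.9 to 18.6% in mitoxantrone libraries. Results for pyrimethamine are therefore given for each library. Differences were tested with limma on log2(normalised count + 1) in 15350 genes with a mean of at least 10, with Benjamini-Hochberg adjustment over all of them and a threshold of 0.05, and a gene is said to have risen or fallen where it passed. All 40 genes passed the filter on low values.

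**Figure D1:**
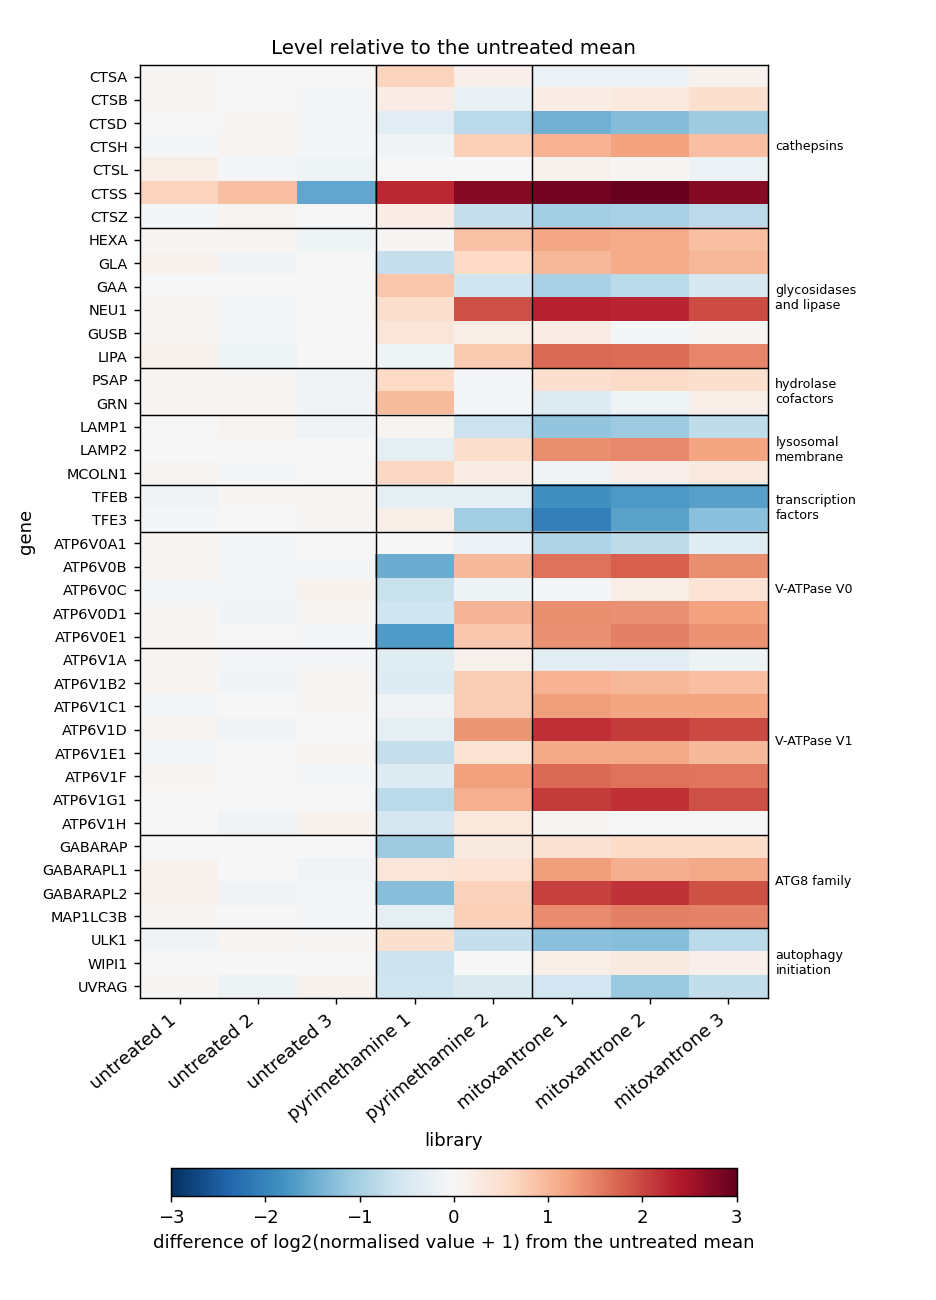
Levels of the 40 genes (rows, grouped by role) in the 8 libraries (columns), as the difference of log2(normalised count + 1) from the mean of the 3 untreated libraries, with red above and blue below. The 3 mitoxantrone libraries resembled each other in direction, with TFEB and TFE3 blue and most V-ATPase rows red, while 28 of the 40 genes lay on opposite sides of the untreated mean in the 2 pyrimethamine libraries.

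Per kilobase of exon, the genes of untreated cells spanned a wide range of levels. ATP6V1G1, a subunit of the peripheral stalk of V1, had the highest, a mean of 4442 normalised counts per kilobase, followed by CTSD, the aspartyl protease cathepsin D, at 3944 and ATP6V1E1, another stalk subunit, at 3826. ATP6V0C, the proteolipid of the proton-carrying ring, came next at 3626, and PSAP, the precursor of the saposins that present lipids to hydrolases, at 3538. The lowest 5 were ULK1, ATP6V0A1, UVRAG and TFEB, at 120.3, 94.8, 90.5 and 29.3, and CTSS, the cathepsin of antigen-presenting cells, at 0.668. TFE3, at 443, stood well above its relative TFEB.

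With mitoxantrone, 18 of the 40 genes rose and 8 fell, while 14 did not pass the test. Over all genes tested, 26.8% rose and 28.1% fell, with a median log2 fold change of 0.00. The median over the 40 genes was 0.53. The 3 mitoxantrone libraries lay above all untreated ones for 23 of the 40 genes and below them for 10. Over all tested genes the shares were 40.4% and 39.5%. Lack of overlap was therefore common, and where given below it is a description. By role, 6 hydrolases and cofactors rose and 2 of 15 fell; of the membrane proteins and transcription factors 1 rose and 3 of 5 fell; 8 of 13 V-ATPase subunits rose and 1 fell; and 3 of 7 autophagy genes rose and 2 fell. Fitted to the untreated and mitoxantrone libraries alone, without the spread of the pyrimethamine libraries, 23 rose and 10 fell, beside 38.9% and 38.2% of all tested genes in that fit. Of the calls, 13 of the 18 higher and 5 of the 8 lower were made under every other setting in which the gene was tested. Of the promoters looked at, TCACGTG was in 4 of 13 of the genes that rose, 2 of 7 of those that fell and 3 of 9 of those not called.

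Among the hydrolases, NEU1, the sialidase that removes sialic acid from glycans and works in a complex with cathepsin A, changed most among those with a level above a trace. Its levels were 1186, 1126 and 1138 in untreated libraries, 1652 and 4419.6 with pyrimethamine and 5652, 5639 and 4497 with mitoxantrone. Every mitoxantrone library lay above every untreated one, and pyrimethamine replicate 2 lay just under them. The rise with mitoxantrone was 4.55-fold (log2 fold change 2.19, SE 0.32, adjusted p = 0.00153, limma). LIPA, the acid lipase that releases cholesterol and fatty acids from lipoprotein lipids, had 2163, 1827 and 1975 untreated, 1809.8 and 3441 with pyrimethamine and 6406, 6345 and 5479 with mitoxantrone. The mitoxantrone libraries lay above all others, and the rise was 3.05-fold (log2 fold change 1.61, SE 0.24, adjusted p = 0.00161). Cathepsin A itself (CTSA), the protective protein of that complex, had 1738, 1688 and 1682 untreated and 1506, 1508 and 1823 with mitoxantrone, overlapping ranges (log2 fold change -0.08, SE 0.18, adjusted p = 0.699). Within a library, the ratio of NEU1 to CTSA normalised counts was 0.667 to 0.682 in untreated cells and 2.47 to 3.75 with mitoxantrone.

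Smaller rises were found for HEXA, the alpha subunit of hexosaminidase, with 2098, 2100.0 and 1837 untreated and 4523, 4322 and 3779 with mitoxantrone (log2 fold change 1.06, SE 0.23, adjusted p = 0.00664), and for CTSH, an aminopeptidase cathepsin, with 1289, 1409 and 1300.2 untreated and 2745, 3068 and 2486 with mitoxantrone (log2 fold change 1.05, SE 0.22, adjusted p = 0.00578). Neither pair of groups overlapped. GLA, alpha-galactosidase A, went from 2609, 2299.8 and 2391 to 4861, 5246 and 4866 (log2 fold change 1.04, SE 0.30, adjusted p = 0.0189). Its call was lost without untreated replicate 2 or 3 or without any single mitoxantrone library, and after adjustment for transcript length its log2 fold change was 0.25.

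Cathepsin D moved the other way. CTSD had 8443, 8547 and 8130.0 untreated, 6667 and 4751 with pyrimethamine and 3095, 3404 and 4017 with mitoxantrone. All 5 treated libraries were below the untreated ones, and the mitoxantrone libraries were lowest. The fall with mitoxantrone was 2.4-fold (log2 fold change -1.26, SE 0.20, adjusted p = 0.00183). CTSZ, a carboxypeptidase cathepsin, had 2529, 2795 and 2632 untreated and 1298, 1339 and 1539 with mitoxantrone, with no overlap (log2 fold change -0.93, SE 0.23, adjusted p = 0.0115). The cysteine protease cathepsin B (CTSB) had 2656, 2538 and 2531 untreated and 3025, 3138 and 3575 with mitoxantrone. Its mitoxantrone libraries were above the untreated ones, but the difference did not pass (log2 fold change 0.33, SE 0.17, adjusted p = 0.129), although it did after adjustment for transcript length, with a log2 fold change of 0.56. The ratio of CTSB to CTSD within a library was 0.297 to 0.315 in untreated cells and 0.890 to 0.977 with mitoxantrone.

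CTSS was at the edge of detection, with 3.68, 4.56 and 0 normalised counts in untreated libraries, 13.1 and 18.5 with pyrimethamine and 20.9, 28.4 and 18.8 with mitoxantrone. It was called higher with mitoxantrone (log2 fold change 2.98, SE 0.66, adjusted p = 0.0073), a fold change that depends on the pseudocount, and it passed the filter on low values through the treated groups. The summed level of 8 leukocyte and macrophage markers moved with it, from 5.32 to 12.9 in untreated libraries to 18.5 to 34.3 with pyrimethamine and 26.5 to 41.9 with mitoxantrone, though all 8 had a mean under 10. Their part in the CTSS result was not tested.

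The remaining hydrolases and cofactors did not pass the test with mitoxantrone. CTSL, cathepsin L, had 825, 688 and 656 untreated and 793, 755 and 636 with mitoxantrone (log2 fold change 0.01, SE 0.16, adjusted p = 0.958), and CTSV, a close paralog that could share reads with it, is described further on. GUSB, beta-glucuronidase, had 1151, 1068 and 1088 untreated and 1279, 1077 and 1123 with mitoxantrone. Both genes overlapped between the groups. GAA, the glycogen-degrading alpha-glucosidase, had 694, 704 and 693 untreated and 356, 398 and 499.7 with mitoxantrone, without overlap but short of the threshold (log2 fold change -0.75, SE 0.33, adjusted p = 0.0823). PSAP had 10686, 10354 and 9541 untreated and 14548, 15268 and 14156 with mitoxantrone, again without overlap (log2 fold change 0.52, SE 0.23, adjusted p = 0.0813). GRN, the progranulin precursor, had 3589.9, 3529.9 and 3274 untreated and 2649.7, 3167 and 3904 with mitoxantrone, with overlap (log2 fold change -0.11, SE 0.27, adjusted p = 0.73).

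**Figure D2:**
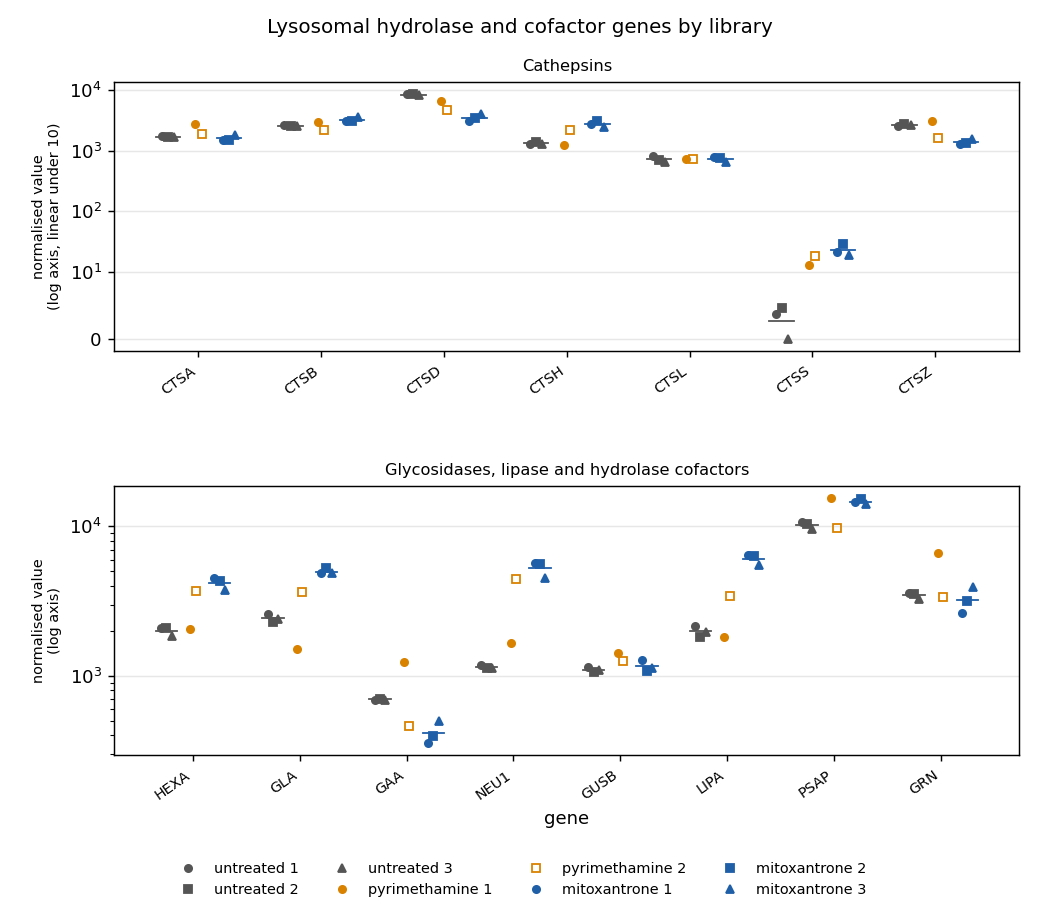
Normalised counts of the 15 hydrolase and cofactor genes (vertical log axis, linear under 10 in the upper panel), with each point 1 library and a bar at the mean of the untreated and of the mitoxantrone libraries. NEU1 and LIPA were highest with mitoxantrone and CTSD lowest, CTSS lay far below the others in every library, and CTSA overlapped between untreated and mitoxantrone libraries.

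The lysosomal membrane showed a contrast of the same kind. LAMP1 and LAMP2 are the most abundant glycoproteins of the lysosomal membrane and share their overall structure. LAMP1 had 4494, 4729.6 and 4154 untreated, 4732 and 2839.8 with pyrimethamine and 1975, 2090.4 and 2646 with mitoxantrone. LAMP2 had 5989.5, 5850.2 and 5931 untreated, 4896 and 8567 with pyrimethamine and 15671, 16212 and 13567 with mitoxantrone. The mitoxantrone libraries were thus below the untreated ones for LAMP1 (2.01-fold lower, SE 0.23 on the log2 scale, adjusted p = 0.0075) and above all others for LAMP2 (log2 fold change 1.35, SE 0.24, adjusted p = 0.003). The ratio of LAMP2 to LAMP1 was 1.24 to 1.43 in untreated libraries and 5.13 to 7.93 with mitoxantrone; in pyrimethamine replicates 1 and 2 it was 1.03 and 3.02. MCOLN1, the mucolipin cation channel of the lysosome, had 266, 240.1 and 251 untreated and 233, 279 and 309 with mitoxantrone, with overlap (log2 fold change 0.11, SE 0.18, adjusted p = 0.624).

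Both transcription factors fell with mitoxantrone. TFEB (chr6:41683978-41736259, GENCODE 29 on GRCh38, as for the gene positions that follow) had 122, 134 and 136 untreated, 106 and 107 with pyrimethamine and 35.9, 38.7 and 41.9 with mitoxantrone. The pyrimethamine libraries lay just under the untreated range, and the mitoxantrone libraries were far below both. The fall was 3.31-fold (log2 fold change -1.73, SE 0.19, adjusted p = 0.000621). TFE3 (chrX:49028726-49043486) had 1481, 1509.7 and 1553 untreated, 1725 and 736 with pyrimethamine and 362, 495 and 636 with mitoxantrone. The mitoxantrone libraries did not overlap the untreated ones, and the fall was 3.12-fold (log2 fold change -1.64, SE 0.32, adjusted p = 0.00441). These are transcript levels, and where the proteins were located in the cells was not measured. MITF, a relative of both factors, rose with mitoxantrone from 335, 343 and 299.7 to 577, 639 and 711 (log2 fold change 0.97, SE 0.22, adjusted p = 0.00807) and is taken from the wider pathway list described further on.

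The 13 V-ATPase subunits did not move as a unit. Their summed normalised counts were 38054 to 39432 in untreated libraries and 89192 to 99592 with mitoxantrone, and their median log2 fold change was 1.21. In V1, ATP6V1D and ATP6V1G1 rose most. ATP6V1G1 (chr9:114587746-114598373) had 4773, 4815 and 4805 untreated, 2731 and 10068 with pyrimethamine and 20663, 21908 and 18412 with mitoxantrone. The mitoxantrone libraries lay above all others, a 4.23-fold rise (log2 fold change 2.08, SE 0.42, adjusted p = 0.00477). ATP6V1D, the central rotor subunit, had 1904, 1699 and 1788 untreated, 1472 and 4505 with pyrimethamine and 8200.4, 7735 and 7114 with mitoxantrone (log2 fold change 2.09, SE 0.36, adjusted p = 0.00254). ATP6V1F, the small subunit at the rotor, had 1865, 1821 and 1725 untreated, 1369.6 and 4227 with pyrimethamine and 5890.1, 5587 and 5466 with mitoxantrone (log2 fold change 1.65, SE 0.36, adjusted p = 0.00645). Both showed the order of ATP6V1G1, with mitoxantrone libraries highest and pyrimethamine replicate 2 between them and the untreated cells.

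The catalytic core of V1 is a ring of A and B subunits in equal number. ATP6V1A, the catalytic A subunit, had 2942, 2712 and 2702 untreated and 2227, 2232 and 2519 with mitoxantrone (log2 fold change -0.26, SE 0.17, adjusted p = 0.219). ATP6V1B2, the B subunit, had 2776, 2530.0 and 2759 untreated and 5522, 5354 and 5019 with mitoxantrone (log2 fold change 0.98, SE 0.27, adjusted p = 0.0164). The mitoxantrone libraries were slightly below the untreated ones for A, short of the threshold, and above them for B. The ratio of ATP6V1B2 to ATP6V1A went from 0.933 to 1.02 in untreated libraries to 1.99 to 2.48 with mitoxantrone, and that of ATP6V1G1 to ATP6V1A from 1.62 to 1.78 to 7.31 to 9.81. ATP6V1C1, which links the stalks to the membrane sector, had 1157, 1169 and 1205 untreated and 2831, 2659.8 and 2690.4 with mitoxantrone (log2 fold change 1.21, SE 0.22, adjusted p = 0.0031). ATP6V1E1 had 5203, 5333 and 5555 untreated and 11803, 11775 and 10462 with mitoxantrone (log2 fold change 1.08, SE 0.28, adjusted p = 0.0134), a rise whose log2 fold change was 0.27 and not called after adjustment for transcript length. ATP6V1H, a regulatory subunit, had 1242, 1150.3 and 1326 untreated and 1262, 1227 and 1235 with mitoxantrone, with overlap (log2 fold change 0.00, SE 0.22, adjusted p = 0.987).

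In the V0 sector, ATP6V0B, the c'' subunit of the proteolipid ring, had 5326, 4909 and 4795 untreated, 1788 and 9844 with pyrimethamine and 15368, 17236 and 13107 with mitoxantrone. The mitoxantrone libraries were highest, and the pyrimethamine libraries lay on either side of the untreated ones (log2 fold change 1.60, SE 0.53, adjusted p = 0.0323 for mitoxantrone). ATP6V0D1, which couples the ring to the rotor, had 2791, 2581 and 2807 untreated, 1796 and 5503 with pyrimethamine and 7158, 7051 and 6279.8 with mitoxantrone (log2 fold change 1.32, SE 0.36, adjusted p = 0.0156). ATP6V0E1, a small membrane subunit, had 3842, 3666 and 3515 untreated, 1128 and 6434 with pyrimethamine and 9486, 10408 and 9373 with mitoxantrone. Its mitoxantrone libraries did not overlap the untreated ones, yet the test just missed (log2 fold change 1.41, SE 0.53, adjusted p = 0.0501). The most abundant V0 transcript per kilobase in untreated cells, ATP6V0C, had 5200.1, 5289 and 5805 untreated and 5178, 6182 and 7208 with mitoxantrone, with overlap (log2 fold change 0.18, SE 0.21, adjusted p = 0.487); adjusted for transcript length, its log2 fold change was -0.58 and called lower. ATP6V0A1, the large subunit through which protons pass, fell from 412, 379.9 and 401 to 212, 235 and 308 (log2 fold change -0.67, SE 0.18, adjusted p = 0.0158).

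Of the V-ATPase calls, the number higher went from 8 to 5 without untreated replicate 2, mitoxantrone replicate 1 or mitoxantrone replicate 2. Over all tested genes, the share called higher went from 26.8% to 17.8%, 17.5% and 17.1% in these fits, in that order. ATP6V0B lost its call without any 1 of the untreated or mitoxantrone libraries. ATP6V0D1 lost it without untreated replicate 2 or mitoxantrone replicate 1 or 2, ATP6V1B2 also without untreated replicate 3, and ATP6V0A1 without untreated replicate 1 or 3 or mitoxantrone replicate 1 or 2. The direction was kept in each case.

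**Figure D3:**
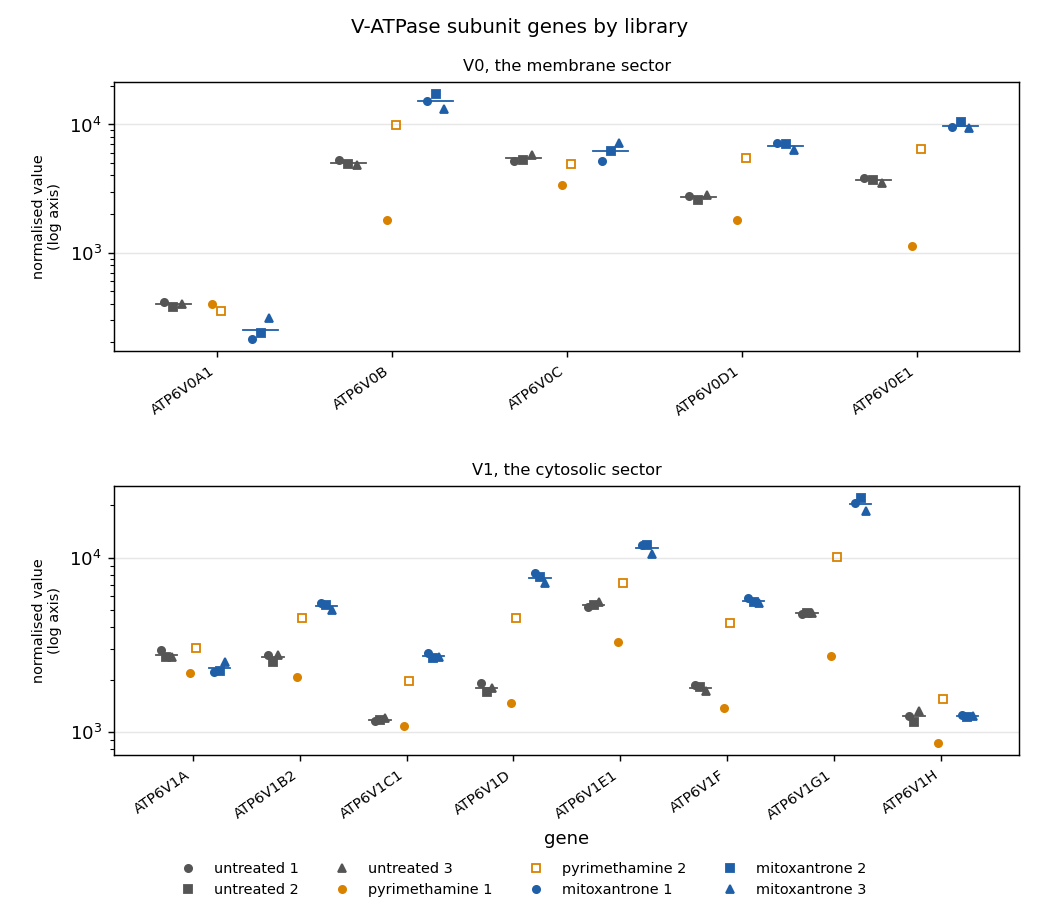
Normalised counts of the 13 V-ATPase subunits (vertical log axis), V0 above and V1 below, with each point 1 library and a bar at the mean of the untreated and of the mitoxantrone libraries. The mitoxantrone points of ATP6V1G1 and ATP6V1D lay above all others, those of ATP6V1A and ATP6V1H did not, and the 2 pyrimethamine points of most subunits lay on opposite sides of the untreated cells.

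Among the autophagy genes, 3 of the 4 ATG8 family members rose with mitoxantrone. GABARAPL2 (chr16:75566351-75577881) had 1707, 1456 and 1515 untreated, 637 and 2507 with pyrimethamine and 6409, 6966 and 5855 with mitoxantrone. The mitoxantrone libraries lay above all others, and the rise was 4.11-fold (log2 fold change 2.04, SE 0.42, adjusted p = 0.00557). MAP1LC3B, the LC3 protein commonly used to follow autophagosomes, had 3114, 2962 and 2936 untreated, 2472 and 4913 with pyrimethamine and 8049, 8558 and 8400.0 with mitoxantrone (log2 fold change 1.47, SE 0.25, adjusted p = 0.00247). Its near-identical copy MAP1LC3B2, at 17.5, 12.9 and 13.5 in untreated libraries and 49.3, 54.2 and 43 with mitoxantrone, could share reads with it. GABARAPL1 had 1087, 1027 and 945 untreated, 1314 and 1351 with pyrimethamine and 2422, 2170.4 and 2225 with mitoxantrone (log2 fold change 1.16, SE 0.14, adjusted p = 0.000775). GABARAP itself had 2466, 2486 and 2473 untreated and 3414, 3639.8 and 3647 with mitoxantrone, without overlap but short of the threshold (log2 fold change 0.53, SE 0.30, adjusted p = 0.164). The ratio of GABARAPL2 to GABARAP rose from 0.586 to 0.692 in untreated libraries to 1.61 to 1.91 with mitoxantrone.

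The genes of the initiating steps did not rise. ULK1, the kinase that starts autophagosome formation, had 592, 675 and 650.1 untreated, 887 and 396 with pyrimethamine and 266, 265 and 365 with mitoxantrone. The mitoxantrone libraries were lowest (log2 fold change -1.11, SE 0.29, adjusted p = 0.0139), and the call was lost without mitoxantrone replicate 1 or 2. UVRAG, a subunit of a lipid kinase complex of autophagy and endocytosis, had 463, 411 and 489 untreated, 301 and 336 with pyrimethamine and 302, 210.5 and 274 with mitoxantrone. All treated libraries were below the untreated ones (log2 fold change -0.80, SE 0.19, adjusted p = 0.00835 for mitoxantrone), and after adjustment for transcript length the mitoxantrone log2 fold change was -0.46 and not called. WIPI1, which binds the lipid made by that kinase, had 856, 852 and 856 untreated and 979, 1032 and 956 with mitoxantrone. Its mitoxantrone libraries lay above the untreated ones, short of the threshold (log2 fold change 0.21, SE 0.18, adjusted p = 0.337). Adjusted for transcript length, its log2 fold change was -0.32 and called lower.

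**Figure D4:**
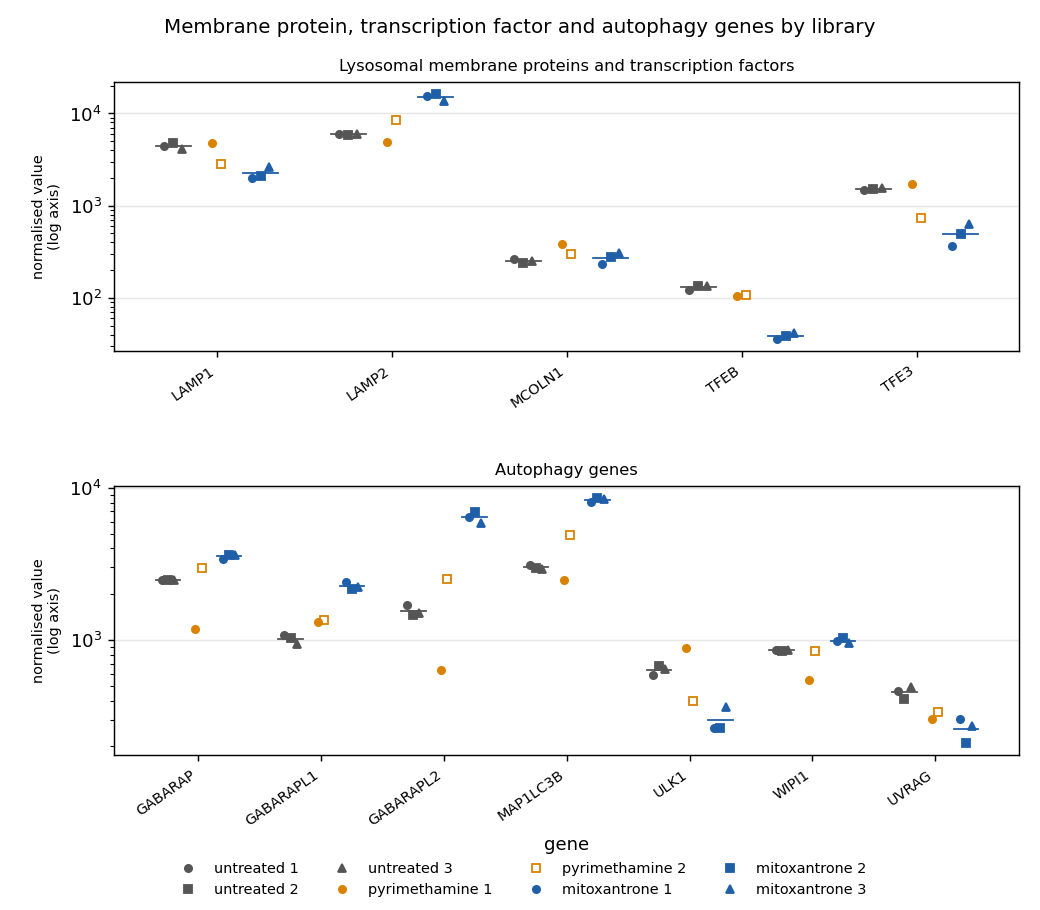
Normalised counts (vertical log axis) of the lysosomal membrane and transcription factor genes, above, and of the autophagy genes, below, with each point 1 library and a bar at the mean of the untreated and of the mitoxantrone libraries. LAMP2, GABARAPL1, GABARAPL2 and MAP1LC3B were highest and LAMP1, ULK1, TFEB and TFE3 lowest in the 3 mitoxantrone libraries.

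Exon length moved with these changes. The 18 genes that rose had a median exon length of 2239 bases and the 8 that fell one of 3804 bases. Across the 40 genes the Spearman correlation between exon length and log2 fold change with mitoxantrone was -0.33 (n = 40 genes), and across all tested genes with a length it was -0.39 (n = 14006 genes). The genes share the same 8 libraries, so these are descriptions. Adjusted for transcript length, 17 of the 40 genes rose and 9 fell, beside 25.3% and 28.9% of 14006 tested genes. Of the V-ATPase subunits, 7 were higher and 2 lower, and their median log2 fold change was 0.73 in place of 1.21. NEU1, LIPA, LAMP2, ATP6V1G1, ATP6V1D, GABARAPL2, CTSD, LAMP1, TFEB and TFE3 kept their calls.

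**Figure D5:**
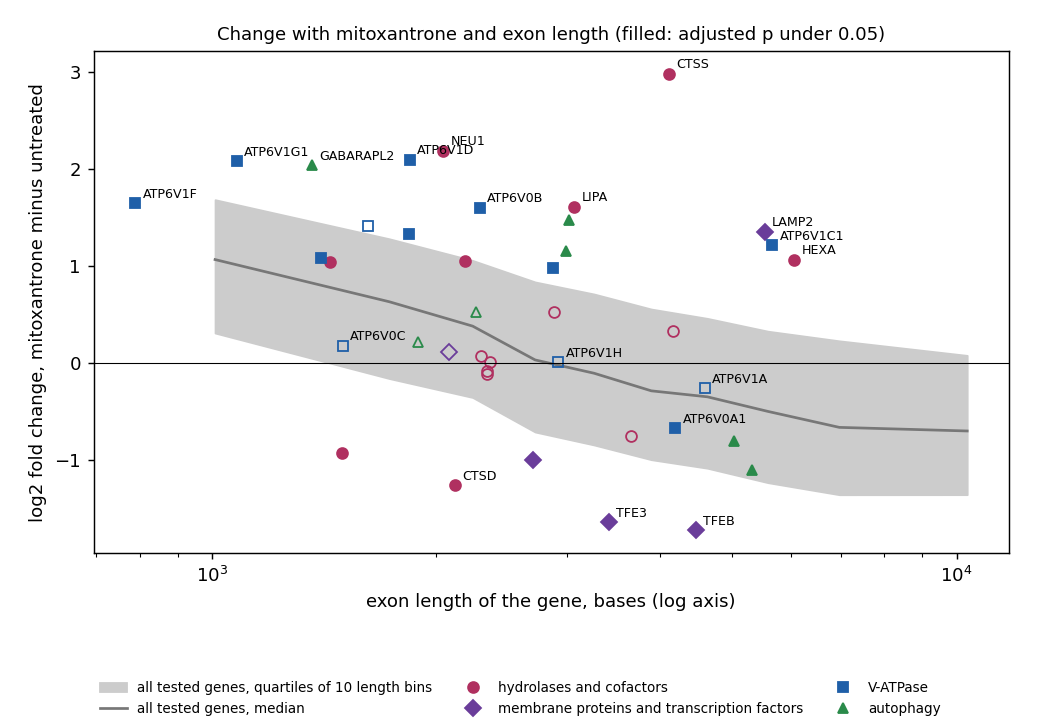
Log2 fold change with mitoxantrone (vertical axis) against exon length in bases (horizontal log axis) for the 40 genes, with filled symbols for those past the threshold; the grey line and band give the median and quartiles of all tested genes in 10 bins of length. The median of the shortest bin was 1.06 and that of the longest -0.70, while long LAMP2, ATP6V1C1 and HEXA lay above the band and TFEB, TFE3 and CTSD below it.

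With pyrimethamine, none of the 40 genes was called higher or lower by limma, against 2.29% of all tested genes higher and 1.31% lower. At an unadjusted p under 0.05 there were 5 of the 40, and the share of all tested genes at that level was not counted. On the recovered whole reads, edgeR called 0, beside 3.15% of all tested genes higher and 1.22% lower. DESeq2 called 2, both higher (CTSS and NEU1), beside 6.76% higher and 4.57% lower. Adjusted for transcript length, limma called 1, NEU1, as higher, beside 4.28% higher and 3.42% lower. The size and direction depended on the library. Without replicate 1, 21 genes were called higher and 6 lower, beside 24.6% and 22.8% of all tested genes. Without replicate 2, 8 were called higher and 19 lower, beside 19.8% and 29.6%. Each of these fits assumes that the lone library varies as the other groups do.

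The 2 pyrimethamine libraries lay on opposite sides of the untreated mean for 28 of the 40 genes (70%), as they did for 55.4% of all tested genes. For the V-ATPase it was 12 of 13 subunits, 11 of them lower in replicate 1 and higher in replicate 2. ATP6V0E1 was -1.70 in replicate 1 and 0.81 in replicate 2 on the log2 scale relative to the untreated mean. For ATP6V0B the values were -1.48 and 0.98, and for GABARAPL2 they were -1.29 and 0.69. The summed V-ATPase level was 23560 in replicate 1, below the lowest untreated library, and 64051 in replicate 2, above the highest. Replicate 2 also held the larger share of ribosomal protein reads. Across the 40 genes, the Spearman correlation of exon length with the difference from the untreated mean was 0.43 in replicate 1 and -0.27 in replicate 2. The median exon length was 1845 bases for the V-ATPase subunits and 3568 for tested genes. The part of ribosomal reads or of length in the split between these 2 libraries was not tested. Replicate 1 was the higher library for GAA, with 1246 and 462 in replicates 1 and 2, for ULK1, with 887 and 396, and for GRN, with 6657 and 3393.

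Replicate 2 was nearer to the mitoxantrone mean than to the untreated mean for 25 of the 40 genes (62.5%), and replicate 1 for 7 (17.5%). Over all tested genes the shares were 57.1% and 22.7%. In both pyrimethamine libraries alike, 7 of the 40 genes lay above the untreated mean and 5 below it. Of all 15350 tested genes, 3413 lay above it in both and 3424 below it in both, larger shares than among the 40. NEU1 was above the untreated mean by 0.52 and 1.94 on the log2 scale (log2 fold change 1.23, SE 0.36, adjusted p = 0.105, limma). CTSD was at -0.33 and -0.82 (log2 fold change -0.57, SE 0.22, adjusted p = 0.202), and UVRAG at -0.59 and -0.43 (log2 fold change -0.51, SE 0.21, adjusted p = 0.226). GABARAPL1 was at 0.37 and 0.41, its libraries nearly equal (log2 fold change 0.39, SE 0.16, adjusted p = 0.218). None of these passed the threshold.

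Set against pyrimethamine directly, 14 of the 40 genes were higher and 6 lower with mitoxantrone, beside 21.2% and 19.9% of all tested genes. The compounds differ in kind and were given at 1 dose each, so this compares the treatments as given. The genes higher with mitoxantrone were 7 V-ATPase subunits, 3 ATG8 family members, CTSH, GLA, LIPA and LAMP2, and those lower were CTSD, LAMP1, TFEB, TFE3, ATP6V0A1 and ULK1. For GABARAPL2 the log2 difference was 2.34 (SE 0.47, adjusted p = 0.0207, limma), with pyrimethamine libraries at 637 and 2507. For LIPA it was 1.28 (SE 0.27, adjusted p = 0.022), and for TFEB it was -1.44 (SE 0.22, adjusted p = 0.017). In each of these 3 genes the 3 mitoxantrone libraries lay outside the range of the pyrimethamine ones. Over all tested genes they lay above it in 32.9% and below it in 30.4%. The calls rested on the spread shared with the untreated libraries: fitted to the mitoxantrone and pyrimethamine libraries alone, none was called, nor was any without mitoxantrone replicate 1 or without mitoxantrone replicate 2. In these 3 fits 0, 0 and 2 of all 15350 genes were called.

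Other genes of the same pathways were taken from lists of named genes, with the same test. Over all tested genes, 26.8% rose and 28.1% fell with mitoxantrone, and 2.29% rose and 1.31% fell with pyrimethamine. The counts of these lists are to be read beside those shares. Of 31 tested lysosomal hydrolases outside the 40, 7 rose and 8 fell with mitoxantrone. Among those that rose, GALC, picked out after its values were seen, passed the filter on low values only through the treated groups. Its mean was 2.24 untreated and 20.2 with mitoxantrone. With pyrimethamine, 2 of these hydrolases rose and none fell. The 2 were cathepsins. CTSV, a cysteine protease of epithelia, had 2120.3, 2084 and 1849.8 untreated, 7002 and 4858 with pyrimethamine and 16124, 15547 and 13697 with mitoxantrone, so that all treated libraries were above the untreated ones. Its log2 fold change was 1.53 with pyrimethamine (SE 0.22, adjusted p = 0.0167) and 2.90 with mitoxantrone (SE 0.20, adjusted p = 0.000165). CTSF had 266, 312 and 285 untreated, 464 and 507 with pyrimethamine and 897, 790.2 and 789 with mitoxantrone, with adjusted p = 0.0488 and 0.000424. ARSB, the sulfatase of dermatan and chondroitin sulfate, fell with mitoxantrone from 346, 288 and 346 to 108, 109.7 and 87.1 (adjusted p = 0.000858), and TPP1, a tripeptidyl peptidase, from 913, 856 and 884 to 278, 323 and 397 (adjusted p = 0.00543).

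Of 34 other membrane, sorting and nutrient-sensing genes, 15 rose and 5 fell with mitoxantrone, and 2 rose with pyrimethamine. RRAGD, a Rag GTPase that recruits the growth kinase mTORC1 to the lysosome, had 128, 148 and 156 untreated, 366 and 372 with pyrimethamine and 169, 165 and 206 with mitoxantrone. Its pyrimethamine libraries were nearly equal and above all others (log2 fold change 1.36, SE 0.20, adjusted p = 0.017 for pyrimethamine and 0.32, adjusted p = 0.15, for mitoxantrone). MITF had 1069 and 606 with pyrimethamine (log2 fold change 1.30, SE 0.25, adjusted p = 0.033). The endolysosomal cation channels TPCN2 and TPCN1 fell with mitoxantrone, TPCN2 from 231, 211 and 195 to 38.9, 60.7 and 43 (log2 fold change -2.16, SE 0.24, adjusted p = 0.000606) and TPCN1 from 298, 329 and 294 to 127, 146 and 143 (log2 fold change -1.14, SE 0.21, adjusted p = 0.00348). SLC17A5, the sialic acid exporter of the lysosome, rose from 269, 255 and 245 to 661, 625 and 477 (log2 fold change 1.18, SE 0.22, adjusted p = 0.0034). All 5 genes of the Ragulator complex, the scaffold of the Rag GTPases (LAMTOR1 to LAMTOR5, picked out after their values were seen), rose, with log2 fold changes of 1.26 for LAMTOR1 to 1.62 for LAMTOR3 and adjusted p-values of 0.00719 for LAMTOR2 to 0.0309 for LAMTOR1. The calls of LAMTOR2 and LAMTOR4 were lost after adjustment for transcript length, and those of LAMTOR1, LAMTOR4 and LAMTOR5 without any single untreated library or without mitoxantrone replicate 1 or 2.

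Of 9 other tested V-ATPase genes, 3 rose and 3 fell with mitoxantrone. The large V0 subunit is made from several genes. ATP6V0A4, a form known from kidney, went from 5.51, 6.84 and 16.6 untreated to 40 and 41.1 with pyrimethamine and 74.8, 56.8 and 55.2 with mitoxantrone, with adjusted p = 0.0461 and 0.00161. Its untreated mean of 9.65 was under the filter of 10, so it was tested only through the treated groups, and at that level the fold change depends on the pseudocount. ATP6V0A2, a Golgi form, had 1002, 948 and 917 untreated and 1785, 1768 and 1548 with mitoxantrone (log2 fold change 0.83, SE 0.20, adjusted p = 0.00975), the opposite direction to ATP6V0A1. ATP6V0E2, the paralog of ATP6V0E1, fell from 502, 487 and 499.8 to 263, 315 and 334 (log2 fold change -0.71, SE 0.15, adjusted p = 0.00665), and the accessory subunit ATP6AP2 rose from 2395, 2412 and 2174 to 4543, 5241 and 4283 (log2 fold change 1.01, SE 0.22, adjusted p = 0.00714).

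Of 41 other tested autophagy genes, 12 rose and 9 fell with mitoxantrone, and 1 rose with pyrimethamine. The last was MAP1LC3A, a further LC3 gene, with 109, 88.9 and 98.5 untreated, 295 and 458 with pyrimethamine and 879, 817 and 925 with mitoxantrone. No group overlapped another (log2 fold change 1.89, SE 0.22, adjusted p = 0.0115 for pyrimethamine; log2 fold change 3.13, SE 0.20, adjusted p = 0.00016 for mitoxantrone). TECPR1, which acts in the fusion of autophagosomes with lysosomes, fell with mitoxantrone from 93.7, 103 and 82.9 to 23.9, 18.1 and 16.5 (log2 fold change -2.21, SE 0.30, adjusted p = 0.00109). BNIP3L, a receptor for the removal of mitochondria, rose from 1495, 1324 and 1499 to 4211, 3908 and 3776 (log2 fold change 1.46, SE 0.21, adjusted p = 0.00132). SQSTM1, the cargo receptor p62 and a gene picked out after its values were seen, had 14154, 13728 and 13471 untreated and 17379, 17070.5 and 17509 with mitoxantrone and did not pass the test (log2 fold change 0.33, SE 0.23, adjusted p = 0.252).

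The 6 genes of these lists called higher with pyrimethamine were CTSV, CTSF, RRAGD, MITF, ATP6V0A4 and MAP1LC3A. In each of them both pyrimethamine libraries lay above all untreated ones, as in 15.8% of all tested genes. They were chosen by their call on the same values, so this adds no support. ATP6V0A4 passed the filter on low values only through the treated groups. All 6 calls were lost without any single untreated library, in the fit of the untreated and pyrimethamine libraries alone, with array weights and with the replicate block by either numbering; in all of these but the fits without an untreated library, no gene of the table was called. Over all tested genes the number called higher with pyrimethamine went from 352 to 9 or 10 without 1 untreated library. CTSV, CTSF, RRAGD, MITF and ATP6V0A4 also lost the call without mitoxantrone replicate 1 or 2, while MAP1LC3A kept it.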

How the data were processed

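RNA of 8 KYSE70 libraries was sequenced, and 1 table of 28281 genes was used. STAR 2.6.90c, featureCounts 1.5.1, cutadapt 1.12 and FastQC 0.11.5 are named with build hg38, per the submitters' processing notes. Which annotation was counted, whether strand was used and how reads fitting more than 1 gene were handled is not given in the sources used here. The deposited values are a normalised signal: gene counts that the authors divided by size factors, per the table's name. Whole reads were recovered from them (100% whole within 0.1 read in every library), with totals of 17555689 to 24774358.

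The main test was limma 3.58.1 in R 4.3.3 on log2(value + 1) with a mean-variance trend, over the 15350 genes whose mean reached 10, with group as the single term and all 8 libraries sharing 1 spread per gene; p-values were two-sided and adjusted over these genes by Benjamini-Hochberg, and 0.05 was the threshold. It assumes equal spread in all groups, although the pyrimethamine libraries differed more from each other. Adding 1 understates the change of genes at low levels. The alternatives were edgeR 4.0.16 and DESeq2 1.42.0 on recovered reads, other pseudocounts, filters and scalings, adjustment for transcript length, array weights, replicate blocks, the groups compared alone, and leaving out each library. The test was first checked on simulated data. Exon lengths are unions of GENCODE 29 transcripts, matched by symbol (91.2% of tested genes). Promoters come from RefSeq (GRCh38.p14).

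Groups came from the sample titles. The second pyrimethamine library is numbered 2 in its title but 3 in its description, and the title was followed. All 40 genes are named, plus up to 3 called genes with the smallest adjusted p per wider pathway list and comparison; any other gene is said to be picked after its values were seen. The genes and lists were chosen with earlier results of these data known. Counts of 0 calls and p-values that miss the threshold do not show equal levels.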

Additional observations from a re-analysis of the deposited data

How the results depend on the processing

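With mitoxantrone, the number of the 40 genes called higher (18) and lower (8) stayed within 1.5 times under every alternative run. With the replicate block the counts were 18 and 8 for mitoxantrone, beside 23.2% and 24.1% of all tested genes. They were 0 and 0 for pyrimethamine, and between the compounds none was called higher or lower. The same 0 and 0 between the compounds came from the replicate block by description number and from the 2 groups compared alone. In these fits with 0 and 0, no tested gene was called. The numbers did not pair the libraries: deviations of same-numbered untreated and mitoxantrone libraries correlated at 0.0526, -0.00784 and 0.0183. Between the compounds, array weights gave 6 higher and 0 lower, beside 5.29% and 0.469% of all tested genes. Quantile normalisation gave 4 higher, beside 14.9%, and no filter on low values gave 2 lower, beside 8.76%. With pyrimethamine, 1 gene was called higher after adjustment for transcript length and 2 with DESeq2, beside 4.28% and 6.76% of all tested genes. Leaving out 1 library in turn, the calls with pyrimethamine ranged from 0 to 21 higher and 0 to 19 lower, and those between the compounds from 0 to 22 higher and 0 to 12 lower.

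Adjusted for transcript length, the mitoxantrone log2 fold changes of ATP6V0C (-0.58) and WIPI1 (-0.32) turned to called falls; the cause was not tested. The 2 pyrimethamine libraries lay on opposite sides of the untreated mean in 28 of the 40 genes, as in 55.4% of all tested genes. In such a gene, leaving out the library further from that mean must reverse the sign, so the reversal is no separate result. Each such fit shows the 1 library that remains. Values are listed for 15 of the 28 genes, picked by their results in these fits. Their log2 fold changes without replicate 1 and without replicate 2 were, in that order, 0.59 and -0.69 for GLA, -0.59 and 0.84 for GAA, 0.53 and -0.27 for LAMP2, 0.98 and -1.48 for ATP6V0B, 1.01 and -0.60 for ATP6V0D1, 0.81 and -1.70 for ATP6V0E1, 0.74 and -0.38 for ATP6V1B2, 1.33 and -0.29 for ATP6V1D, 0.42 and -0.71 for ATP6V1E1, 1.23 and -0.40 for ATP6V1F, 1.07 and -0.81 for ATP6V1G1, 0.32 and -0.51 for ATP6V1H, 0.27 and -1.07 for GABARAP, 0.69 and -1.29 for GABARAPL2 and 0.71 and -0.28 for MAP1LC3B. Between the compounds, the difference for ATP6V1H was -0.32 without pyrimethamine replicate 1 and 0.52 without replicate 2. With 2 pyrimethamine libraries that lie apart, the size of its effect on these genes could not be set.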
